A study of Homo sapiens with 4 samples.

Results

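Keratins are the intermediate filament proteins of epithelial cells, and transcripts of 10 keratin genes were followed in BT549 cells sorted on surface NRP2. The genes were taken by name, as the basal keratins *KRT5*, *KRT14*, *KRT15* and *KRT17*, the simple keratins *KRT7*, *KRT8*, *KRT18* and *KRT19*, and with them *KRT80* and *KRT81*. All 10 were found among the 31681 genes of the count table, each under 1 identifier. BT549 is an established line of triple-negative breast cancer (TNBC), and its cells were sorted by flow cytometry into NRP2-high cells, which carried the neuropilin NRP2 on their surface, and NRP2-low cells, described as lacking it. RNA was sequenced from 2 libraries of each population, which share the cell line and differ in the labels by the sort, with no treatment named. The gates of the sort are not described in the study's text, and NRP2-high and NRP2-low cells come from 1 line, so neither population stands for a tumour.

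A keratin filament is built from pairs of an acidic type I chain and a basic type II chain, so neither type forms filaments by itself. *KRT5* and *KRT14* encode the pair of the basal layer of stratified and glandular epithelia, *KRT8* and *KRT18* the pair of simple epithelia. In the breast, *KRT5*, *KRT14* and *KRT17* are used as markers of basal cells and *KRT7*, *KRT8*, *KRT18* and *KRT19* as markers of luminal cells. Mesenchymal cells build their intermediate filaments from vimentin in place of keratins.

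*NRP2* itself had 2588 and 2839 counts in NRP2-high cells, against 195 and 166 counts in NRP2-low cells, which checks the labels. Library totals ran from 18165923 to 20585102 counts, so 3 counts, the limit that a count of 0 allows, stood for 0.151 to 0.163 CPM (counts per 1e6 of the TMM-normalized library size). Of 15083 genes with enough counts for a test, 8529 passed at an adjusted p under 0.05, of which 4354 (51.0%) had more transcript in NRP2-high cells and 4175 had less. That share was 35.9% to 40.3% without a scaling factor and on the TPM and FPKM scales. Mitochondrially encoded genes made up 6.92% and 9.16% of NRP2-high libraries, against 5.57% and 5.85% of NRP2-low libraries. Without these and the 10 most abundant other genes, 1 keratin gene was still called higher and 6 lower. The vimentin gene *VIM* had 24106 and 27183 counts in NRP2-high cells, against 25640 and 23658 counts in NRP2-low cells. The epithelial adhesion genes *EPCAM* and *CDH1* had at most 5 counts in any library, so both populations had abundant *VIM* with next to no *EPCAM* or *CDH1*. *ERBB2* did not pass the test (log2 fold change -0.12), and *ESR1* and *PGR* were not analysed here. The sources do not say whether the 2 libraries of each population are separate cultures or sorts. The p-values therefore measure the spread between these 4 samples, and that spread may be technical.

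Of the 10 keratin genes, 7 had enough counts for a test. In NRP2-high cells *KRT5*, *KRT7*, *KRT8*, *KRT14*, *KRT18* and *KRT80* were lower, by 2.26-fold to 24.5-fold, and *KRT19* was higher by 36.4-fold. These calls are edgeR quasi-likelihood tests with Benjamini-Hochberg adjustment over all tested genes, by which 56.5% of all tested genes passed, 28.9% as higher and 27.7% as lower. The 2 populations did not overlap in any of the 7 keratin genes, which was also so for 78.2% of all tested genes. However, *KRT8*, *KRT14* and *KRT18* passed the filter on low counts only through NRP2-low cells and *KRT19* only through NRP2-high cells. The direction of these 4 and their lack of overlap were thus fixed once they entered the test. The median log2 fold change of the 7, -1.94 against -0.01 over all tested genes, is the value of *KRT14*, 1 of these 4, and is given as a description. The 3 that reached the filter in both populations, *KRT5*, *KRT7* and *KRT80*, were all lower. *KRT15*, *KRT17* and *KRT81* had too few counts for a test. In sorted bulk RNA, fewer cells with a transcript and less transcript per cell cannot be told apart.

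**Figure D1:**
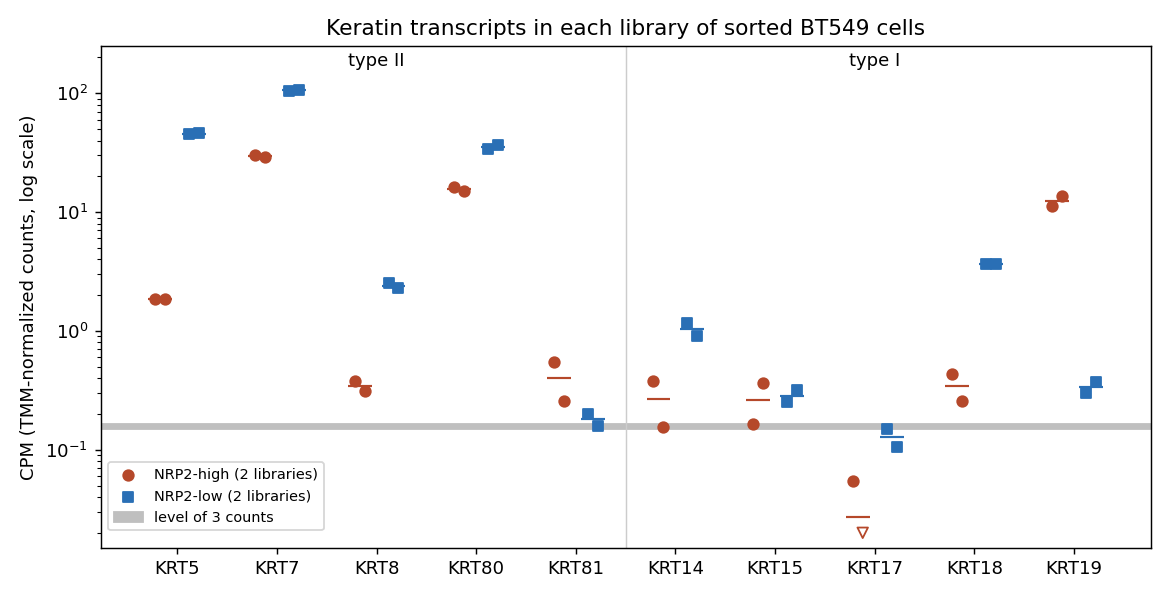
TMM-normalized CPM (log scale) of the 10 keratin genes in each library, with circles for NRP2-high cells, squares for NRP2-low cells, short lines for the mean of 2 libraries, an open triangle at the bottom for a count of 0, and a grey band for the level of 3 counts. *KRT5* sits near 1.85 CPM in NRP2-high cells and near 45.5 CPM in NRP2-low cells, and *KRT19* runs the other way, at 12.4 and 0.337 CPM.

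The type II keratins are described first. *KRT5*, the type II chain of basal cells (ENSG00000186081.11, hg38 chr12:52514575-52520530, minus strand), had 34 and 36 counts in NRP2-high cells, against 896 and 867 counts in NRP2-low cells. This was 1.85 ± 0.00438 CPM in NRP2-high cells and 45.5 ± 0.775 CPM in NRP2-low cells (SD, n = 2 each). Both NRP2-high libraries lay far below both NRP2-low libraries. The SD of the NRP2-high libraries, with 34 and 36 counts, is below the counting error and so understates the spread. The log2 fold change was -4.61 (standard error 0.12, edgeR adjusted p = 3.4e-10), or 24.5-fold lower. By size of fold change *KRT5* was number 60 of the 4175 lower genes, the highest place of the keratins among them.

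The sequence before the start of *KRT5* is shown because this gene had the largest fall of the 10, with that of *KRT8* beside it as another type II keratin that was lower. RefSeq windows of the 250 bases before a gene start (GRCh38.p14) were matched for these 2 of the 10 genes. The first lies at chr12:52520501-52520644 on the minus strand, the part of its window farthest from the start, of which the last 30 bases are exonic in an annotated transcript of GENCODE v44. The 106 bases nearest the start were searched but are not shown, since nearly all of them are in that exon. The second lies at chr12:52926470-52926719 on the minus strand, inside the longer *KRT8* gene of the count table and in none of its exons. Both are written 5′ to 3′ in lower case, with capitals for a match to a searched motif.
KRT5: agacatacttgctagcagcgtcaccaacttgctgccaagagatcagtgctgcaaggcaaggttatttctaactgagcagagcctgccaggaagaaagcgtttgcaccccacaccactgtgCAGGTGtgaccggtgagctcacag
KRT8: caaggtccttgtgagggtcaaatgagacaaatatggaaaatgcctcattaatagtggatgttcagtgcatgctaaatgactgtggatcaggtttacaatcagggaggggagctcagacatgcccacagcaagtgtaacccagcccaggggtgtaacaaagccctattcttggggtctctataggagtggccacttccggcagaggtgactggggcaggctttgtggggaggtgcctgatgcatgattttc

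Searched on both strands of the full 250 bases of each window were the TATA box TATAAA, the GC box GGGCGG, the AP-1 motif TGAGTCA and the E-box CACCTG, which ZEB and SNAI factors can bind. The only match in the 2 windows was 1 E-box in the *KRT5* window, so no motifs overlapped. It reads CAGGTG on the strand shown, from 130 to 125 bases before the RefSeq start. This E-box lies among the exonic bases at the end of the part shown, inside the *KRT5* gene of the count table. Among 35116 windows of the same length, the E-box was found in 17.5%, the GC box in 42.6%, the TATA box in 10.7% and the AP-1 motif in 4.2%. A match of letters is a description of the sequence and not of binding.

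*KRT7*, a type II keratin of simple and glandular epithelia (ENSG00000135480.15, chr12:52232520-52252186, plus strand), had 552 and 564 counts in NRP2-high cells, against 2091 and 1996 counts in NRP2-low cells. It averaged 29.6 ± 0.675 CPM in NRP2-high cells and 106 ± 0.781 CPM in NRP2-low cells (SD, n = 2 each). Its log2 fold change was -1.84 (standard error 0.06, edgeR adjusted p = 2.3e-09), or 3.57-fold lower. *KRT7* thus had the smaller fold of the 2 type II keratins with the most transcript in NRP2-low cells, and the populations did not overlap. *KRT7-AS*, an antisense RNA that shares 282 exon bases with *KRT7* on the opposite strand in GENCODE v44, had 4 and 6 counts in NRP2-high cells, against 11 and 18 counts in NRP2-low cells (log2 fold change -1.48, standard error 0.51, edgeR adjusted p = 0.028). It passed the filter on low counts only through NRP2-low cells, so this direction was fixed on entry. Whether the counting used strand is not stated, so reads in these bases, which are 7.05% of the exon bases of *KRT7*, may belong to either gene.

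*KRT80*, a type II keratin found in many epithelia (ENSG00000167767.13, chr12:52168996-52192000, minus strand), had 299 and 291 counts in NRP2-high cells, against 681 and 684 counts in NRP2-low cells. It averaged 15.6 ± 0.895 CPM in NRP2-high cells and 35.3 ± 1.53 CPM in NRP2-low cells (SD, n = 2 each). With a log2 fold change of -1.17 (standard error 0.09, edgeR adjusted p = 1.1e-06), *KRT80* had the smallest change of the 7 tested keratins, and its populations still did not overlap.

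*KRT8*, the type II chain of simple epithelia (ENSG00000170421.12, chr12:52897187-52949824, minus strand), was low in every library, with 7 and 6 counts in NRP2-high cells, against 50 and 43 counts in NRP2-low cells. It averaged 0.345 ± 0.0506 CPM in NRP2-high cells and 2.40 ± 0.159 CPM in NRP2-low cells (SD, n = 2 each), and the populations did not overlap. The log2 fold change was -2.78 (standard error 0.35, edgeR adjusted p = 4.6e-05), or 6.86-fold lower. *KRT81*, a type II hair keratin (ENSG00000205426.10, chr12:52285913-52291534, minus strand), had 10 and 5 counts in NRP2-high cells, against 4 and 3 counts in NRP2-low cells. The ratio of its pooled counts per effective library size was 2.20 (95% Clopper-Pearson interval 0.844 to 6.37, counting error only), and at this depth no difference could be detected. *KRT81* lies inside the span of *KRT86*, another hair keratin, which had 7 and 8 counts in NRP2-high cells, against 5 and 10 counts in NRP2-low cells.

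Among the type I keratins, *KRT19* moved against the rest. It encodes the small acidic chain of simple epithelia that is a widely used marker of luminal breast cells (ENSG00000171345.13, chr17:41523617-41528299, minus strand). *KRT19* had 205 and 266 counts in NRP2-high cells, against 6 and 7 counts in NRP2-low cells. That is 12.4 ± 1.81 CPM in NRP2-high cells and 0.337 ± 0.0501 CPM in NRP2-low cells (SD, n = 2 each). Both NRP2-high libraries were high and both NRP2-low libraries near the level of 3 counts. The log2 fold change was 5.19 (standard error 0.26, edgeR adjusted p = 3.6e-08), or 36.4-fold higher, which made *KRT19* number 66 of the 4354 higher genes by size of fold change. *KRT19* passed the filter on low counts only through NRP2-high cells, so this direction was fixed on entry. The fold and the place rest on 6 and 7 counts in NRP2-low cells.

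*KRT18*, the acidic partner of *KRT8* (ENSG00000111057.10, chr12:52948871-52952900, plus strand), had 8 and 5 counts in NRP2-high cells, against 73 and 69 counts in NRP2-low cells. It averaged 0.347 ± 0.126 CPM in NRP2-high cells and 3.67 ± 0.0016 CPM in NRP2-low cells (SD, n = 2 each). The SD of the NRP2-low libraries, with 73 and 69 counts, is below the counting error. The log2 fold change was -3.39 (standard error 0.32, edgeR adjusted p = 5.9e-06), or 10.5-fold lower. The genes of this pair were thus both low and both lower in NRP2-high cells. Both passed the filter on low counts only through NRP2-low cells, so this direction was fixed on entry. *KRT8* and *KRT18* are neighbours and share 525 exon bases on opposite strands in GENCODE v44, which is 7.63% of the exon bases of *KRT8* and 17.1% of those of *KRT18*. Without a stated strand setting, reads in these bases cannot be assigned to either gene, and their part in the *KRT8* and *KRT18* values was not tested.

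*KRT14*, the acidic partner of *KRT5* (ENSG00000186847.5, chr17:41582279-41586921, minus strand), had 7 and 3 counts in NRP2-high cells, against 23 and 17 counts in NRP2-low cells. It averaged 0.268 ± 0.16 CPM in NRP2-high cells and 1.03 ± 0.178 CPM in NRP2-low cells (SD, n = 2 each). The log2 fold change was -1.94 (standard error 0.48, edgeR adjusted p = 0.0053), or 3.82-fold lower. This was the weakest of the 7 calls: the adjusted p was 0.083 with DESeq2, 0.076 with limma on log2(TPM + 1) of all genes, and 0.059 without NRP2-low replicate 1. The log2 fold change was -2.68 without NRP2-high replicate 1 and -1.42 without NRP2-high replicate 2.

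The other type I genes were close to the limit of detection. *KRT15*, a keratin of basal and progenitor cells (ENSG00000171346.15, chr17:41513743-41522529, minus strand), had 3 and 7 counts in NRP2-high cells, against 5 and 6 counts in NRP2-low cells, and the populations overlapped. The ratio of its pooled counts was 0.933 (95% Clopper-Pearson interval 0.355 to 2.42). *KRT17*, a keratin of basal-like tumours and of wounded skin (ENSG00000128422.16, chr17:41619441-41624842, minus strand), had 1 and 0 counts in NRP2-high cells, against 3 and 2 counts in NRP2-low cells. Its ratio was 0.205 (95% Clopper-Pearson interval 0.00434 to 1.83), so no difference was detectable at this depth for either gene.

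**Figure D2:**
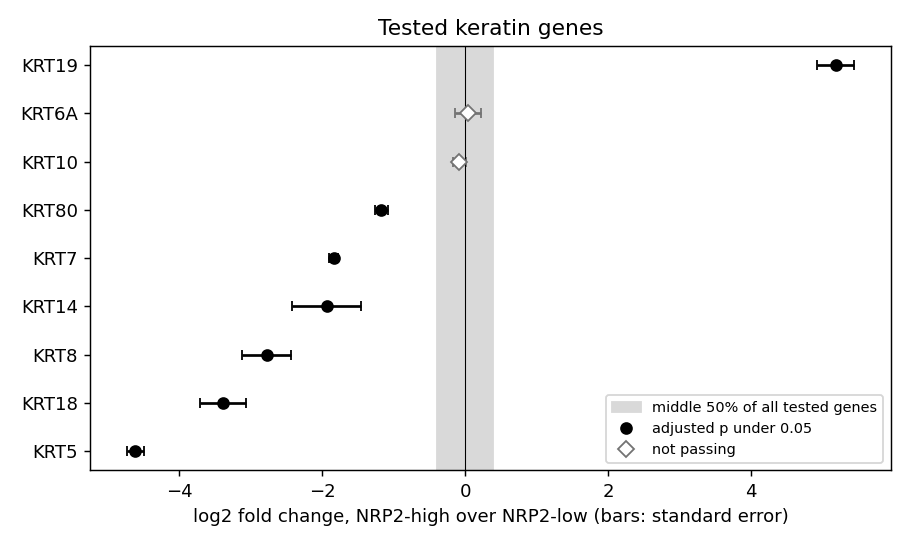
Log2 fold change, NRP2-high over NRP2-low, of the 9 keratin genes with enough counts for a test, with bars for the standard error, filled circles for an adjusted p under 0.05, open diamonds for genes that did not pass, and a grey band for the middle 50% of all tested genes (-0.39 to 0.39). *KRT19* is at 5.19, 6 keratins lie between -4.61 and -1.17, and *KRT10* and *KRT6A* lie near 0.

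Levels were compared between genes in TPM, which corrects for gene length. The 10 genes summed to 59.0 and 54.1 TPM in NRP2-high cells, against 170 and 173 TPM in NRP2-low cells. Of the 10, *KRT7* led in all 4 libraries, at 25.5 and 22.3 TPM in NRP2-high cells, against 94.3 and 95.1 TPM in NRP2-low cells. Below *KRT7* the order differed between the populations.

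In NRP2-high cells *KRT19* came second, at 16.6 and 18.4 TPM, then *KRT80* at 13.0 and 10.8 TPM and *KRT5* at 1.5 and 1.36 TPM, and none of these neighbours overlapped in level. The other 6 genes were each under 1 TPM there. In NRP2-low cells *KRT5* came second, at 38.5 and 39.4 TPM, then *KRT80* at 28.9 and 30.7 TPM and *KRT18* at 4.19 and 4.18 TPM. *KRT14* followed at 1.86 and 1.45 TPM and *KRT8* at 1.34 and 1.22 TPM, which lay close to each other, and *KRT19* was at 0.474 and 0.585 TPM.

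As a share of the summed TPM of the 10 genes, *KRT5* took 2.54% and 2.51% in NRP2-high cells, against 22.6% and 22.7% in NRP2-low cells. *KRT19* took 28.1% and 34.1% in NRP2-high cells, against 0.278% and 0.337% in NRP2-low cells. The share of *KRT80* differed far less, at 22.0% and 20.01% in NRP2-high cells, against 16.97% and 17.7% in NRP2-low cells. The sum and the make-up thus both differed, with *KRT19* in the place that *KRT5* held in NRP2-low cells.

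**Figure D3:**
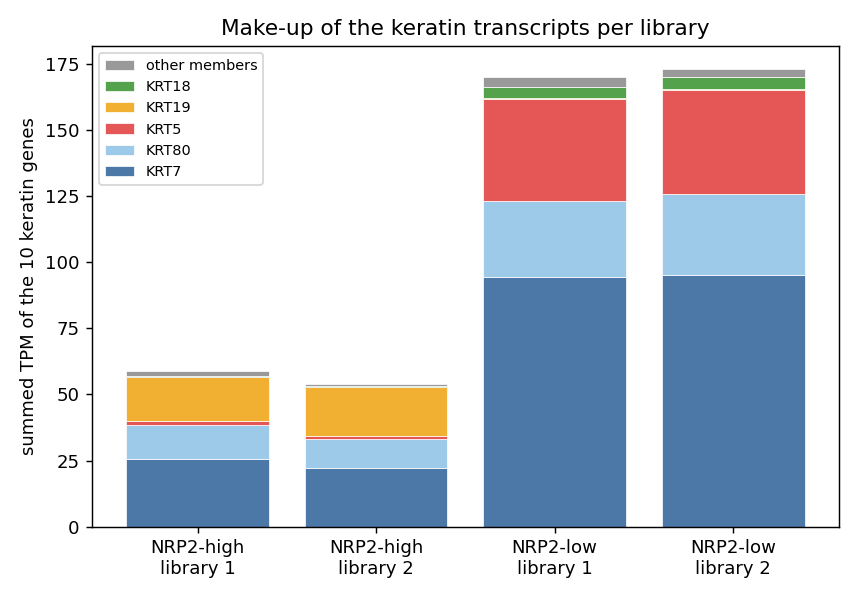
Summed TPM of the 10 keratin genes in each library, as bars stacked by gene, with NRP2-high libraries on the left and NRP2-low libraries on the right. The bars reach 59.0 and 54.1 TPM in NRP2-high cells, against 170 and 173 TPM in NRP2-low cells, with *KRT19* visible in the first pair and *KRT5* in the second.

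By chain type, the 5 type II genes summed to 41.2 and 35.0 TPM in NRP2-high cells, against 163 and 167 TPM in NRP2-low cells. The 5 type I genes summed to 17.8 and 19.0 TPM in NRP2-high cells, against 6.83 and 6.51 TPM in NRP2-low cells. Within the 10 genes, type II transcripts therefore exceeded type I transcripts 2.31 and 1.84 times in NRP2-high cells, against 23.9 and 25.6 times in NRP2-low cells. Without *KRT19*, the type I genes summed to 1.19 and 0.624 TPM in NRP2-high cells, against 6.36 and 5.93 TPM in NRP2-low cells, so the higher type I sum of NRP2-high cells rested on *KRT19*. These sums hold the 10 genes and not every keratin.

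The genes of the named pairs were not at equal levels. *KRT5* was above *KRT14* in every library, with TPM ratios of 2.58 and 6.38 in NRP2-high cells, against 20.7 and 27.1 in NRP2-low cells. In TPM *KRT8* was below *KRT18*, with ratios of 0.409 and 0.561 in NRP2-high cells, against 0.320 and 0.291 in NRP2-low cells. The *KRT8* to *KRT18* ratios of NRP2-high cells rest on 5 to 8 counts per gene and library. They also depend on the gene lengths used, 6881 bases for *KRT8* and 3218 bases for *KRT18*. In counts, *KRT8* had 7 and 6 in NRP2-high cells, where *KRT18* had 8 and 5. In NRP2-low cells *KRT8* had 50 and 43 counts, where *KRT18* had 73 and 69. For *KRT7* and *KRT19*, a type II and a type I keratin of simple epithelia, the ratio was 1.54 and 1.21 in NRP2-high cells, against 198.9 and 162.7 in NRP2-low cells.

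Beyond the 10 genes, 19 other keratin genes were in the table, and 16 of them had at most 10 counts over all 4 libraries together, 5 of these with none. The 2 with enough counts for a test did not pass. *KRT10*, the type I keratin of the upper layers of the epidermis, had 338 and 372 counts in NRP2-high cells, against 397 and 374 counts in NRP2-low cells (log2 fold change -0.08, standard error 0.09, edgeR adjusted p = 0.47). *KRT6A*, a type II keratin of stressed and wounded epithelia, had 81 and 102 counts in NRP2-high cells, against 85 and 97 counts in NRP2-low cells (log2 fold change 0.04, standard error 0.18, edgeR adjusted p = 0.87). The populations overlapped for *KRT6A*, a neighbour of *KRT5* on chromosome 12.

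Pseudogene copies of the keratin genes can share reads with them. The 15 copies of *KRT8* in the table summed to 138 and 158 counts in NRP2-high cells, against 146 and 168 counts in NRP2-low cells, more than *KRT8* itself had in any library. Nearly all were in *KRT8P12*, with 124 and 148 counts in NRP2-high cells, against 134 and 144 counts in NRP2-low cells (log2 fold change 0.00, edgeR adjusted p = 0.99). The 24 copies of *KRT18* summed to 24 and 18 counts in NRP2-high cells, against 25 and 20 counts in NRP2-low cells. The most counted of them, *KRT18P5*, had 12 and 8 counts in NRP2-high cells, against 4 and 2 counts in NRP2-low cells. The other 23 summed to 12 and 10 counts in NRP2-high cells, against 21 and 18 counts in NRP2-low cells. How reads were divided between genes and copies beyond the mapping quality filter was not tested, so the levels of *KRT8* and *KRT18* are uncertain.

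The keratin genes lie in 2 clusters, the type II genes with *KRT18* on chromosome 12 and the other type I genes on chromosome 17. Within 500 kb of the *KRT5* start, 7 keratin loci were tested, *KRT7-AS* among them, and 6 were lower in NRP2-high cells, with *KRT6A* as the exception. Of the 6, *KRT8*, *KRT18* and *KRT7-AS* entered the test only through NRP2-low cells, which leaves *KRT5*, *KRT7* and *KRT80* as those whose direction the filter did not set. The 3 other tested genes there, *EIF4B*, *ATG101* and *NR4A1*, had log2 fold changes of -0.55 to -0.38, the first 2 of them past the test. On chromosome 17, *KRT19* was higher and *KRT14*, which starts 58.6 kb away, was lower. The 12 other tested genes within 500 kb of *KRT19* were mixed, with 4 higher, 5 lower and 3 not passing and a median log2 fold change of -0.02, where 28.9% of all tested genes were higher and 27.7% lower. The high level of *KRT19* in NRP2-high cells was thus not shared by its tested neighbours, the largest increase among which was 0.81 on the log2 scale for *KLHL11*.

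**Figure D4:**
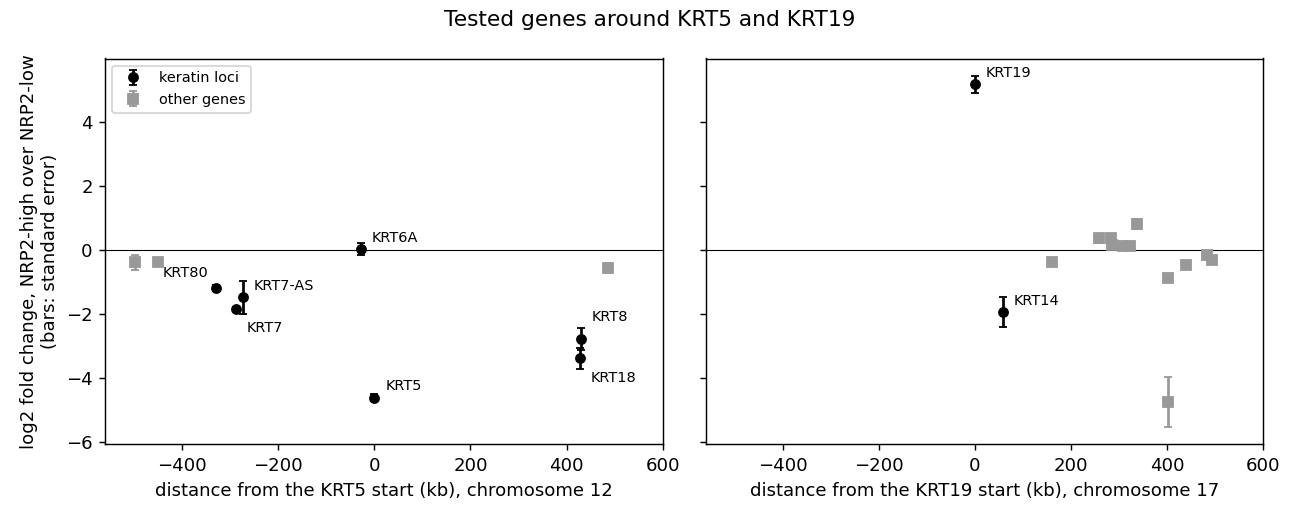
Log2 fold change, NRP2-high over NRP2-low, of tested genes within 500 kb of the *KRT5* start on chromosome 12 (left) and the *KRT19* start on chromosome 17 (right), against the distance from that start in kb, with circles for keratin loci, squares for other genes and bars for the standard error. The keratin loci around *KRT5* lie between 0.04 (*KRT6A*) and -4.61, while *KRT19* at 5.19 and *KRT14* at -1.94 lie on either side of 0; the grey square at -4.74 is *TTC25*.

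Keratin filaments are anchored at desmosomes and hemidesmosomes, and of 23 genes listed for these and for plakin linkers 15 were tested. In NRP2-high cells 8 of the 15 were higher, 5 lower and 2 did not pass, with a median log2 fold change of 0.26. *ITGA6*, the integrin α chain of hemidesmosomes, had 6286 and 6906 counts in NRP2-high cells, against 2033 and 1894 counts in NRP2-low cells (log2 fold change 1.78). The desmosomal cadherin gene *DSG2* had 965 and 1049 counts in NRP2-high cells, against 440 and 491 counts in NRP2-low cells (log2 fold change 1.15). The plakin genes *DST* and *MACF1* were higher by 0.55 and 0.39 on the log2 scale, and the plakin gene *PPL* was lower, at -0.98. *PKP1*, which encodes a desmosomal plaque protein of stratified epithelia, had 2 and 1 counts in NRP2-high cells, against 32 and 27 counts in NRP2-low cells. Its pooled ratio was 0.0522 (95% Clopper-Pearson interval 0.0105 to 0.16), and it was close to the limit of detection in NRP2-high cells. *ITGB4*, the partner chain of *ITGA6* in hemidesmosomes, had 4 and 3 counts in NRP2-high cells, against 21 and 6 counts in NRP2-low cells, too few for a test. The list moved both ways, and 13 of 15 were called, where 56.5% of all tested genes were. Of the 13, *PKP1*, *DSC2* and *COL17A1* passed the filter only through the population where they were high, so that their direction was fixed on entry.

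Of the 16 other intermediate filament genes listed, 8 were tested, with 1 higher, 3 lower and 4 not passing and a median log2 fold change of 0.07. The 4 of 8 called lie near the 56.5% of all tested genes. *VIM* had the most counts of them and did not pass (log2 fold change 0.09, standard error 0.06, edgeR adjusted p = 0.18). *INA*, a neuronal filament gene, was higher at 0.72, and *SYNC*, at -0.59, and the lamin genes *LMNA* and *LMNB1*, at -0.30 and -0.29, were lower. The called genes of this list had changes under 2-fold, and none of them entered the test through 1 population only. Of the 7 called keratins 4 did so, which leaves their folds without a like comparison. The 3 that reached the filter in both populations, *KRT5*, *KRT7* and *KRT80*, were lower by 24.5-fold, 3.57-fold and 2.26-fold.

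Of 27 listed factors that act on epithelial and keratin gene expression, 17 entered the test. In NRP2-high cells 10 were higher and 2 lower, and 5 did not pass, with a median log2 fold change of 0.51, where 28.9% of all tested genes were higher and 27.7% lower. Of the 10, *ESRP2* and *SNAI1* passed the filter only through NRP2-high cells. *SOX9*, a transcription factor of mammary progenitor cells, had 1476 and 1646 counts in NRP2-high cells, against 130 and 101 counts in NRP2-low cells (log2 fold change 3.79, standard error 0.10, edgeR adjusted p = 3.4e-10). *SNAI2*, which encodes the E-box repressor SLUG, had 2700 and 3119 counts in NRP2-high cells, against 968 and 890 counts in NRP2-low cells (log2 fold change 1.68, standard error 0.06, edgeR adjusted p = 4.6e-09). *ZEB1* and *ZEB2*, which encode other repressors that bind the E-box, did not pass, each at a log2 fold change of 0.13 (edgeR adjusted p = 0.15 and 0.17). *GATA3* and *TRPS1*, GATA-family factors of luminal cells, were higher by 1.22 and 0.93 on the log2 scale, and the mesenchymal factors *PRRX1* and *TWIST2* by 1.18 and 0.51. Factors tied to luminal cells and factors tied to mesenchymal cells were thus both among the higher genes. The 2 lower factors were *KLF4* and *TFAP2C*, each at a log2 fold change of -0.52. The mesenchymal factor *TWIST1* did not pass (log2 fold change 0.12, edgeR adjusted p = 0.090). *TP63*, which encodes a main activator of *KRT5* and *KRT14* in basal epithelia, had 3 and 5 counts in NRP2-high cells, against 6 and 4 counts in NRP2-low cells, too few for a test. The part of *TP63* in the *KRT5* values was not tested.

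**Figure D5:**
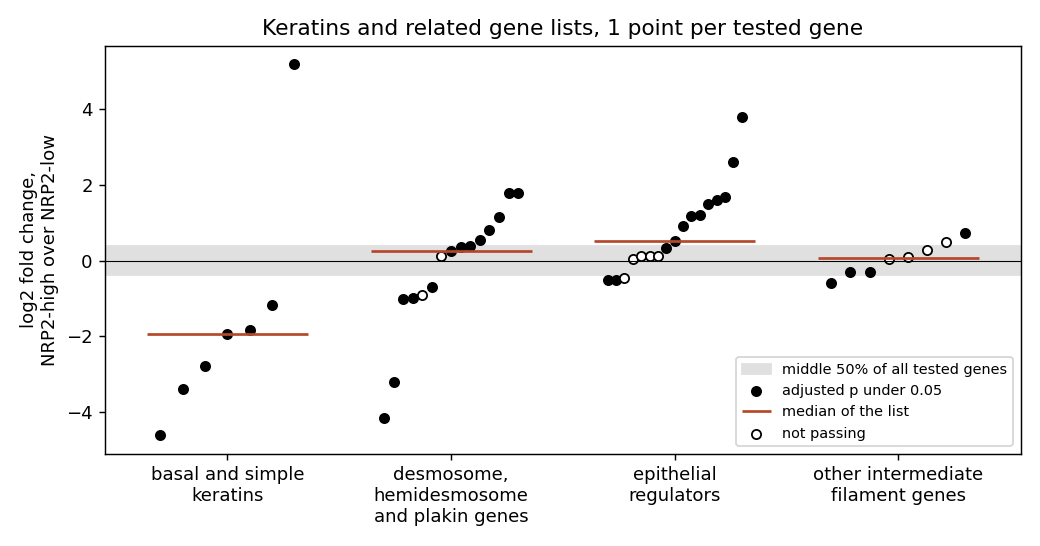
Log2 fold change, NRP2-high over NRP2-low, with 1 point per tested gene of the keratin list and of 3 related lists, filled where the adjusted p was under 0.05 and open where it was not, with a red line at the median of each list and a grey band for the middle 50% of all tested genes. The keratin points run from -4.61 to 5.19 with none in the band, and 4 of the 7 passed the filter on low counts through 1 population only.

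Markers of other cell types were counted beside these results. Of all tested genes, 28.9% were higher and 27.7% lower. Luminal markers summed to 368 and 393 CPM in NRP2-high cells, against 208 and 218 CPM in NRP2-low cells. Of 4 tested genes, 3 were higher (*GATA3*, *MUC1* and *CLDN7*) and *CLDN4* did not pass (log2 fold change -0.71). *EPCAM*, *CDH1*, *FOXA1* and *CLDN3* were near 0. Most of the luminal sum was in *MUC1*, at 262 and 282 CPM in NRP2-high cells, against 162 and 170 CPM in NRP2-low cells. Basal and myoepithelial markers summed to 594 and 614 CPM in NRP2-high cells, against 680 and 696 CPM in NRP2-low cells, with 2 of 5 tested genes higher, 3 lower and *TP63* near 0. Without *EGFR*, the other 6 summed to 280 and 302 CPM in NRP2-high cells, against 223 and 228 CPM in NRP2-low cells. Of this, *ACTA2* alone held 123 and 130 CPM in NRP2-high cells, against 2.86 and 2.76 CPM in NRP2-low cells. The direction of the sum thus depends on single genes and does not stand for the list. *ACTA2*, a contractile gene of myoepithelial cells, was higher at a log2 fold change of 5.49 and *CDH3*, which encodes P-cadherin, lower at -0.86. Mesenchymal markers summed to 6532 and 6807 CPM in NRP2-high cells, against 3172 and 3167 CPM in NRP2-low cells, with 3 of 6 tested genes higher, 1 lower and 2 not passing. Without *FN1* and *COL1A1*, the other 4 summed to 2017 and 2141 CPM in NRP2-high cells, against 1949 and 1929 CPM in NRP2-low cells. These sums were not tested. Leukocyte markers summed to at most 1.06 CPM and endothelial markers to at most 0.722 CPM in any library. Of 8 listed epidermal differentiation markers, only 2 were matched by name, *FLG* and *TGM1*. *FLG* was higher, with 242 and 199 counts in NRP2-high cells, against 73 and 74 counts in NRP2-low cells. *TGM1* had at most 7 counts, so *FLG* does not stand for the list. The part of any of these lists in the keratin values was not tested.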

How the data were processed

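RNA from 2 NRP2-high and 2 NRP2-low libraries of BT549 cells was used. The authors aligned stranded polyA libraries to hg38 with STAR 2.5.3a and counted fragments per gene with featureCounts 1.5.2; the annotation release and strand setting are not given in the sources used here. The deposited counts were not normalized. The deposited TPM and FPKM values equal those counts per gene length and per library, as the authors scaled them, which was checked on the values.

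The 10 keratin genes were matched by name. Genes were tested with edgeR 4.0.16 (R 4.3.3), by its quasi-likelihood test after filterByExpr and TMM, and p-values were adjusted by Benjamini-Hochberg over 15083 genes, with a threshold of 0.05. CPM use effective library sizes, errors are SD over 2 libraries, and ratios of untested genes and of *PKP1* are of pooled counts per effective library size. The common biological coefficient of variation was 0.0502. Clopper-Pearson intervals and the limit of 3 counts cover counting error only. The script was tested on simulated data, with the common dispersion for every gene and few changed genes. That simulation does not test the calls at the spread and the share of called genes seen here. DESeq2 1.42.0, limma 3.58.1, other filters, scalings, thresholds, a replicate block and leaving out each library were the alternatives.

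The keratin genes, lists and tests were chosen with earlier results of these data known. Named were the 10 genes, other keratins that passed the filter, the 6 called genes with the smallest adjusted p in each list, and markers of the line (*VIM*, *CDH1*, *EPCAM*, *ERBB2*). All other genes, and the sums that leave out named genes, were chosen after their values were seen. The libraries of a pair were not duplicates: a chi-square over genes per degree of freedom was 10.6 for NRP2-high and 1.60 for NRP2-low cells. Exon overlaps are from GENCODE v44 and sequences from RefSeq.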

Additional observations from a re-analysis of the deposited data

How the results depend on the processing

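The 18 alternatives called 1 keratin gene higher in each and 5 or 6 lower. *KRT5*, *KRT7*, *KRT8*, *KRT18*, *KRT19* and *KRT80* kept their direction and their call in all 18. *KRT14* lost its call in 3 (DESeq2, log2(TPM + 1) without a filter, and without NRP2-low replicate 1) and was not tested at 1 CPM or more in 2 libraries. The median log2 fold change of the tested keratins was -0.98 on log2(FPKM + 1), -1.26 on log2(TPM + 1) with and without a filter, and -2.04 on total counts, and ran from -2.68 to -1.81 with 1 library left out. On log2(FPKM + 1), the added 1 held *KRT8* at -0.38, *KRT14* at -0.40, *KRT18* at -0.98 and *KRT19* at 2.41. *KRT10* was called lower there alone, at -0.17 (adjusted p = 0.040), so 1 other keratin gene was lower at that setting. Over all genes, 4577 were called on log2(TPM + 1) without a filter, 2805 in a test against 1.5-fold, and 6381 to 9474 with 1 library left out. Against 1.5-fold, 6 junction and plakin genes, 7 epithelial regulators and 0 other intermediate filament genes were called, and 8 and 3 junction and plakin genes on log2(FPKM + 1) and on log2(TPM + 1) without a filter; the smaller counts against 1.5-fold follow from the stricter hypothesis, and the cause of the others was not tested. Total counts moved the median of all genes by -0.11, log2(TPM + 1) by -0.13 and log2(TPM + 0.1) by -0.15. The correlation of same-numbered deviations was -0.01, so no shift shared by replicate number was seen. This cannot show whether same-numbered libraries come from 1 sort or culture. With a replicate block 8880 genes were called and the keratin median was -1.93, with 1 keratin gene higher and 6 lower. Depth limits *KRT15*, *KRT17* and *KRT81*, with at most 10 counts in any library.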
